A study of Danio rerio with 48 samples.

Results

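The comparison described here sets zebrafish exposed to the middle of 3 chromium concentrations against unexposed fish. It comprises 8 of the 48 arrays of the series: 4 arrays of fish held for 24 h at a measured 69.9 mg/L chromium, and the 4 control arrays at 0 mg/L that carry the chromium label. Members were chosen by the sample labels alone, and only rows with an Ensembl or Vega transcript ID were used, which are 43714 probes of 21903 transcripts. The series exposed adult fish aged 6 to 9 months to chromium, nickel or cobalt in flow-through aquaria, ground the whole frozen animals, and hybridised Cy3-labelled copies of pooled RNA to one-colour arrays. The other groups compared here have 4 arrays each. They are chromium at 56.5 mg/L (low) and 80.6 mg/L (high), nickel at 51.0 mg/L and cobalt at 46.3 mg/L (the mid doses of those metals). The nickel-labelled and the cobalt controls at 0 mg/L are also used. Nickel at 42.4 and 64.0 mg/L and cobalt at 39.7 and 59.5 mg/L, with 4 arrays each, are not compared. They enter the fits of those metals and of all 48 arrays, and so their estimates of spread. The 4 pools behind the chromium controls were hybridised again as the nickel controls, so these metals share control RNA, while cobalt had its own. Strain, sex, the chromium salt and its oxidation state, the number of fish per pool and the tanks behind the replicates are not given in the labels, so p-values measure only the spread between these pools and arrays.

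Chromium occurs in water mainly as trivalent and hexavalent ions. Hexavalent chromium, as chromate, resembles sulfate, enters cells through anion carriers and is reduced inside them, which gives rise to reactive intermediates, DNA lesions and oxidised thiols, whereas trivalent chromium crosses membranes poorly. In fish the gill, the skin, the olfactory surface and the gut are the tissues in direct contact with dissolved metal. Each array here measured the RNA of the whole animal, so fewer cells of a type and less RNA per cell cannot be told apart. The transcript IDs are not paired with gene symbols in the tables used here, so transcripts are given by ID, no gene or tissue is named, and the whole-organism label was not checked against tissue markers.

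Mid chromium separated the arrays clearly from control, and the large changes ran mostly downward. In limma's test, 5175 probes passed an adjusted p of 0.05, which is 11.8% of the probes tested, with 2762 higher (6.32%) and 2413 lower (5.52%). Scaled to 6 spike-in rows, the count was 2827, 1400 higher and 1427 lower. The share of higher calls was thus 49.5% with this scaling and 53.4% without it. Among lower calls the median log2 fold change was -0.80, and among higher calls it was 0.56. At least 2-fold changes were called for 937 lower and 327 higher probes, and at least 4-fold changes for 250 lower and 39 higher probes. All 35 calls of 16-fold or more, of which 18 reached 32-fold, were decreases.

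**Figure D1:**
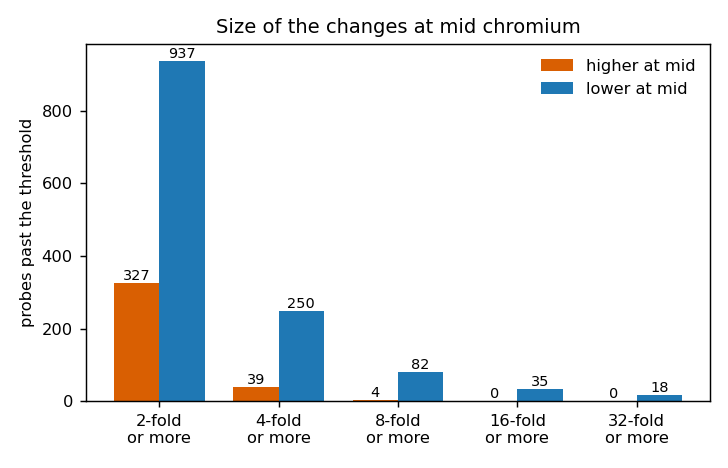
Number of probes past the limma threshold at mid chromium against control, by minimum size of change, for higher (orange) and lower (blue) probes. Lower probes outnumber higher ones at every size shown, from 937 against 327 at 2-fold to 18 against 0 at 32-fold.

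The deepest loss was of ENSDART00000018409_2, among the brightest probes of control fish. Its log2 intensity was 14.47, 14.37, 14.61 and 14.69 on the control arrays and 5.14, 6.35, 5.00 and 5.64 on the mid arrays. Thus all 4 mid arrays lay far below all 4 controls and close to log2 5, at or below which 99.0% of 96 values of dark and negative control spots fell. The means were 14.53 ± 0.14 and 5.53 ± 0.61 (SD, n = 4 each). Limma put the log2 fold change at -9.00 with an SE of 1.06 and an adjusted p of 3.33e-05. With the mid array at or below log2 5 set to that limit, the decrease was at least 9.00 log2 units. The SE includes the spread of the high group, whose replicate 3 read 11.28 where its 3 companions read 4.79 to 5.26. Without that array the adjusted p was 5.73e-10 at the same fold change.

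ENSDART00000067818_2 behaved in the same way. Its control arrays read 13.68, 13.70, 13.84 and 13.89, and its mid arrays 5.02, 5.75, 4.74 and 4.93, of which 2 were at or below the limit. The groups did not overlap, and the log2 fold change was -8.67 ± 0.77 (SE), adjusted p 2.52e-06, or a decrease of at least 8.59 log2 units with the limit applied. The second probe of each transcript gave a log2 fold change of -8.41 for ENSDART00000018409 (adjusted p 3.15e-05) and of -8.53 for ENSDART00000067818 (adjusted p 7.13e-06).

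The 2 largest increases were smaller than these decreases. On the mid arrays their SDs were 1.46 and 0.64, against 0.61 and 0.44 for the decreases. In the high group the order was the other way, at 0.82 and 0.60 against 3.15 and 2.36. Those 2 larger SDs include high replicate 3, which lay far from its companions. It read 11.28 against 4.79 to 5.26 for ENSDART00000018409_2, and 9.62 against 4.63 to 5.31 for ENSDART00000067818_2. ENSDART00000015991_2 read 6.04, 5.59, 5.91 and 5.91 on the control arrays and 7.46, 10.57, 10.46 and 10.04 on the mid arrays. Replicate 1 therefore rose less than the other 3 mid arrays, although it was still above every control. The increase was 3.77 ± 0.58 log2 units (SE), or 13.6-fold, with an adjusted p of 0.000382, and it was 4.49 without mid replicate 1. ENSDART00000005436_1 was already abundant in control fish, at 8.96, 9.30, 8.94 and 8.91, and read 11.59, 12.29, 12.84 and 12.99 at the mid dose. It rose 10.6-fold, by 3.40 ± 0.30 log2 units (SE), adjusted p 2.54e-06, with no overlap of the groups. The second probes rose as well, by 3.78 for ENSDART00000015991 (adjusted p 0.000113) and by 3.61 for ENSDART00000005436 (adjusted p 6.69e-06).

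**Figure D2:**
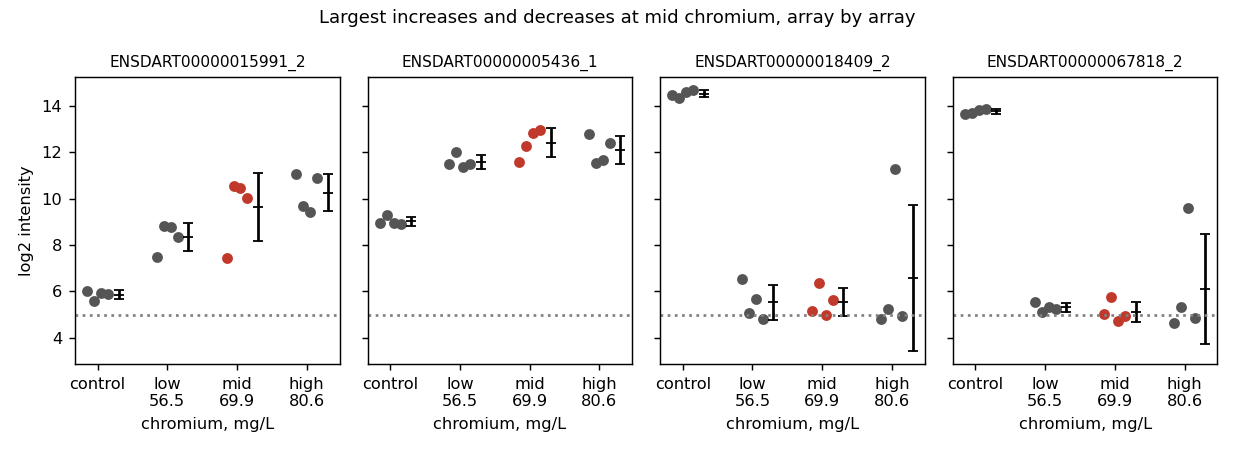
Log2 intensity on every chromium array of the 2 transcripts with the largest increase and the 2 with the largest decrease at mid chromium, with group mean and SD (bars, n = 4) and the background limit of log2 5 (dotted). Mid arrays (red) of ENSDART00000018409_2 and ENSDART00000067818_2 lie near the limit, far below controls at 13.68 or more, and high replicate 3 lies apart at 11.28 and 9.62.

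These 4 probes head a larger group of separated transcripts. Of the 2762 higher calls, 2383 had all 4 mid arrays above all 4 controls, and 2167 of the 2413 lower calls had all of them below. Over all probes tested, such separation was seen upward in 7.97% and downward in 6.59%. Every mid array took part in these calls, given here as a description because the calls rest on the same arrays: between 99.9% and 100% of the higher calls lay above the control mean on each of them, and between 99.9% and 100% of the lower calls lay below it. The median difference from control over the higher calls was 0.48, 0.57, 0.61 and 0.60 for replicates 1 to 4, and over the lower calls it was -0.79, -0.80, -0.86 and -0.79. Replicate 1 had the smallest rise of the 4, and the decreases differed less between arrays.

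How often a probe was called depended on its level in control fish. Among the 14249 probes with a control mean at or below log2 5, 92 were called higher and 10 lower. Between log2 8 and 10, 14.1% of 5986 probes were called higher and 12.1% lower, and between 10 and 12 the shares were 16.1% and 17.8% of 2360 probes. Between log2 12 and 14 the balance was 11.7% higher against 15.2% lower of 738 probes, and above 14 it was 4.47% against 8.10% of 358. The 4-fold decreases were most frequent among abundant transcripts, at 4.34% of probes between log2 12 and 14, 2.75% between 10 and 12, 1.92% between 8 and 10 and 0.324% between 6 and 8, with 1.68% above 14. A probe at log2 6 reaches the background limit after a 2-fold decrease, so this limit bounds the decreases of dim probes.

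**Figure D3:**
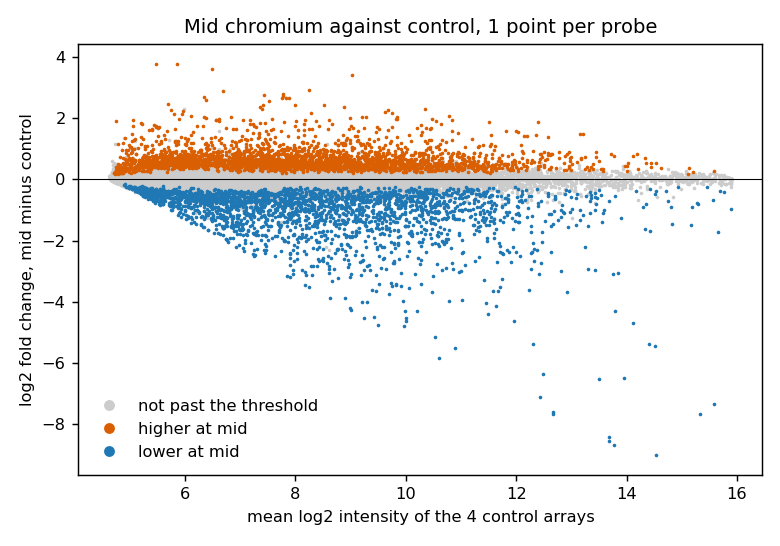
Log2 fold change at mid chromium against the mean log2 intensity of the 4 control arrays, 1 point per probe, with higher calls in orange, lower calls in blue and other probes in grey. Decreases reach -9.00 log2 units at the bright end, while the sloping lower edge at the dim end is the distance to background.

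Few abundant probes fell to the background limit on every mid array. On all 4 control arrays but on no mid array, 124 probes lay above the background limit, and 112 of these were called lower. Most were dim in control fish: 8 had a control mean above log2 8 and 1 above log2 10, the highest being 10.60. This count leaves out probes with any mid array above the limit, however slightly, among them ENSDART00000018409_2 and ENSDART00000067818_2. The 35 probes lowered 16-fold or more had a median of log2 11.965 in controls and 5.46 at the mid dose. Of these, 5 lay at or below the limit on all 4 mid arrays. In the other direction, 40 probes were above the limit on all 4 mid arrays and on no control array. Of these, 21 were called higher, 2 had a mid mean above log2 6, and the highest mean was 6.66. By this rule, expression that appeared from background at this dose was low in these arrays. The 39 increases of 4-fold or more all started from a control mean above the limit, the lowest at log2 5.47. Some started close to it, as ENSDART00000015991_2 read 5.59 to 6.04 in controls and averaged 9.63 at the mid dose.

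Changes of 4-fold or more were mostly called on both probes of a transcript, while many transcripts had a call on only some of their probes. Among the 3484 transcripts that had more than 1 probe and a call on at least 1 of them, 841 had all probes called higher, 844 had all called lower, and 0 had probes called in opposite directions. In the other 1799 (51.6%), at least 1 probe was not called. Of 136 pairs in which the first probe was called with a change of 4-fold or more, the second was called in the same direction in 133 and also changed 4-fold or more in 115. Across the 8321 pairs with both control means above log2 6, the 2 fold changes correlated at 0.938, a description across probes that share the same arrays. Only 4 of these pairs differed by over 2 log2 units. In the most discordant, picked after its values were seen, 1 probe fell by 7.09 log2 units from a control mean of 12.43 (adjusted p 3.94e-05), while the other, with a control mean of 12.29, had a log2 fold change of -0.10 (adjusted p 0.913).

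**Figure D4:**
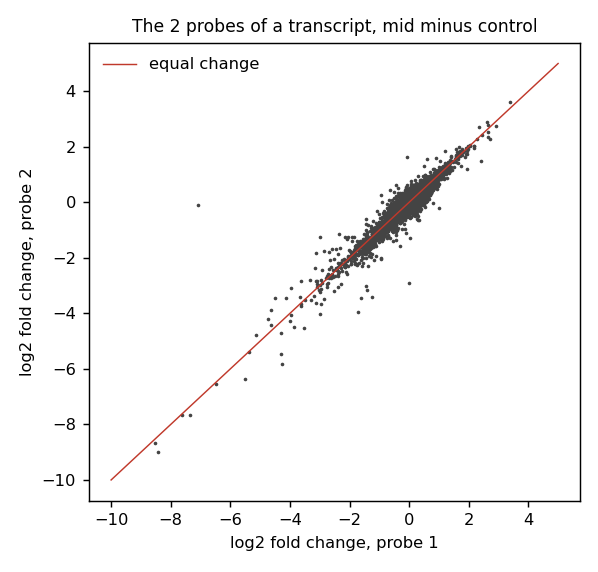
Log2 fold change at mid chromium of the first (horizontal) and second (vertical) probe of the same transcript, for the 8321 pairs with both control means above log2 6, with the line of equal change in red. Points follow the line over the whole range except for 4 pairs over 2 log2 units apart, 1 of them at -7.09 and -0.10.

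The 250 probes lowered 4-fold or more and the 39 raised 4-fold or more were chosen on their mid values, so their levels are a description. The lowered probes belonged to 150 transcripts, with a median control level of log2 9.71 and a maximum of 15.59, and their median at the mid dose was 6.57. Array by array, their median difference from the control mean was -2.70 ± 0.08 (SD, n = 4) at the mid dose, within a range of -2.80 to -2.63. These probes were chosen on the same mid arrays, by a test that favours a small spread. This range and that of the raised probes are therefore descriptions too. The raised probes belonged to 24 transcripts, with a median control level of log2 7.52 and a median of 10.19 at the mid dose. Their median difference from the control mean was 2.39 ± 0.32 (SD, n = 4), from 1.98 to 2.75, a wider relative spread than that of the lowered probes.

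Whether 69.9 mg/L differed from its neighbouring concentrations was asked directly between exposed groups. No control array enters these differences, but the control arrays share the estimate of spread behind their SEs. Against 56.5 mg/L, 0 probes passed limma's test, 3001 had an unadjusted p under 0.05, and the smallest adjusted p was 0.128. Arrays of the groups did not overlap for 1.79% of probes upward and 1.91% downward. Against 80.6 mg/L, 0 passed, with 3901 at an unadjusted p under 0.05 and a smallest adjusted p of 0.0631, and groups did not overlap for 2.24% upward and 2.16% downward. Compared with the mean of both neighbours, 0 passed and 3104 had an unadjusted p under 0.05, and mid arrays lay above all 8 neighbours for 0.297% of probes and below all 8 for 0.309%. The counts of 0 did not all persist under other settings. With only the arrays of the groups compared, 5 probes differed between mid and the mean of its neighbours. With all 48 arrays in 1 fit, 64 probes differed between mid and high (17 higher and 47 lower at mid), and without high replicate 3 there were 11.

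A test that finds no difference does not show equal levels, but the intervals bound it within 2-fold for most probes. For 98.6% of all probes, and 97.2% of the 19345 with a mean above log2 6, the 95% interval of the difference between mid and low lay within 2-fold. Between mid and high the shares were 98.4% and 96.8%. This margin is wide, as only 1264 of the 5175 calls at mid reached 2-fold. Within 1.5-fold lay the intervals of 78.4% of probes with a mean above log2 6 against low and 75.4% against high. For the 5175 probes called at mid these shares were 76.1% and 74.4%. The largest changes were known less well: the interval lay within 2-fold for 199 of the 250 lowered probes against low and 182 against high, and for 16 and 19 of the 39 raised probes. Within 1.5-fold the shares were 24% and 23.2% of the lowered probes, and 15.4% and 2.56% of the raised ones.

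Doses of chromium share their controls, and the values of the named probes at low, mid and high are therefore set side by side. ENSDART00000015991_2 differed from control by 2.498, 3.768 and 4.406 log2 units, and the interval of mid minus low ran from 0.038 to 2.503 (adjusted p 0.710). ENSDART00000005436_1 differed by 2.57, 3.40 and 3.08, with an interval of mid minus low from 0.18 to 1.48 (adjusted p 0.600). The highest group mean of the former was thus at the high dose and that of the latter at the mid dose, with neither step past the threshold. ENSDART00000018409_2 differed by -9.01, -9.00 and -7.97, and ENSDART00000067818_2 by -8.47, -8.67 and -7.67, so both were near background at each dose apart from high replicate 3. Calls against control numbered 4927 (11.3%) at low, 5.68% higher and 5.59% lower. At high they numbered 7404 (16.9%), 9.2% higher and 7.74% lower. The mid count of 5175 lay between them in these fits. With a mid or control array left out the mid count ran from 4160 to 5031. The low count was not rerun in this way, so the order of low and mid is not settled.

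A control-matched test asked whether mid chromium changed transcripts by the same amount as mid cobalt. The metals were at unequal concentrations, 69.9 and 46.3 mg/L, so this compares the exposures as given. Cobalt alone gave 3556 calls against its control (8.13%). Effects of the metals were unequal at 1972 probes (4.51%). The signed log2 fold change was higher in chromium at 815 (1.86%) and lower at 1157 (2.65%). Lower here includes probes with a deeper loss in chromium. Spike-in rows averaged 8.64 on mid cobalt arrays and 8.69 on cobalt controls, below 10.90 and 10.96 in the chromium set. The part of this shift between the sets in the result was not tested. Scaling to those rows was done within each metal, so it kept the shift, and it left 1124 probes. The 2 transcripts lost most in chromium stayed bright in cobalt: ENSDART00000018409_2 read 13.63 ± 0.19 at mid cobalt against 13.79 ± 0.14 in cobalt controls, and ENSDART00000067818_2 read 12.53 ± 0.36 against 12.75 ± 0.24 (SD, n = 4 each). Their differences in effect were -8.84 ± 0.93 (SE), limma adjusted p 4.54e-09, and -8.44 ± 0.79 (SE), adjusted p 3.19e-10.

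Other transcripts went in opposite directions in these metals. ENSDART00000091158_2 read 11.37, 11.14, 10.66 and 9.97 in chromium controls and 12.69, 13.29, 12.95 and 12.45 at mid chromium, where it rose by 2.06 ± 0.30 (SE, adjusted p 0.00021). At mid cobalt it read 8.29, 8.45, 8.71 and 7.67 against 11.73, 10.99, 11.81 and 10.95 in cobalt controls, a log2 fold change of -3.09 (adjusted p 4.44e-06). The groups did not overlap in either metal, and the difference between effects was 5.15 ± 0.40 (SE, adjusted p 3.07e-12). ENSDART00000019431_1 read 8.77, 8.77, 9.21 and 9.29 in chromium controls and 11.03, 10.74, 11.105 and 10.14 at mid chromium, a rise of 1.74 ± 0.19 (SE, adjusted p 1.74e-05). In cobalt it went from 9.43 ± 0.45 to 6.25 ± 0.56 (SD, n = 4 each), which left a difference in effect of 4.92 ± 0.37 (SE, adjusted p 1.19e-12).

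Most probes called in both metals moved the same way. Because their controls were separate pools, the lists can be compared. Of the higher calls in chromium, 948 were called higher in cobalt, which is 34.3% of the chromium list and 49.5% of the cobalt list, against 4.38% of all probes called higher in cobalt. Of the lower calls, 486 were also lower in cobalt, 20.1% of the chromium list and 29.6% of the cobalt list, against 3.75% of all probes. Opposite calls were 33 in each direction. Among the 250 probes lowered 4-fold or more by chromium, 70 (28.0%) were called lower and 6 higher at mid cobalt, with a median log2 fold change of -0.40. The 39 raised ones had 21 (53.8%) called higher, 2 (5.13%) called lower and a median of 2.05. For all probes that median was near 0, at -0.0041. The 2 transcripts raised most in chromium also rose at mid cobalt. ENSDART00000015991_2 rose by 2.93 log2 units (limma adjusted p 0.00111) and ENSDART00000005436_1 by 1.91 (adjusted p 0.0377). For ENSDART00000005436_1 the groups overlapped, as cobalt control replicate 2 read 11.45 and mid cobalt replicate 3 read 10.42.

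**Figure D5:**
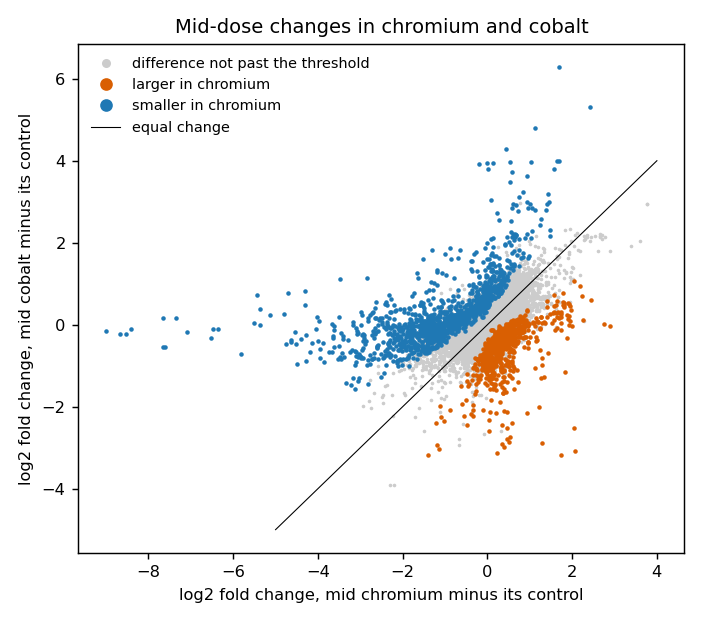
Log2 fold change at mid cobalt against its control (vertical) and at mid chromium against its control (horizontal), 1 point per probe. Probes whose effects differ past the limma threshold are in orange (815, larger in chromium) and blue (1157, smaller in chromium). Larger and smaller refer to the signed log2 fold change, so a deeper loss in chromium counts as smaller. The 35 probes lowered 16-fold or more by chromium, at the left of the plot, have a median of -0.17 in cobalt.

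Mid nickel (51.0 mg/L) gave 3299 calls against its control arrays (7.55%), 4.29% higher and 3.26% lower. Mid chromium and mid nickel had unequal effects at 974 probes (2.23%). The signed log2 fold change was higher in chromium at 188 (0.43%) and lower, which includes deeper losses, at 786 (1.8%). Nickel and chromium controls are the same pools, and with the pool as a random block the count was 1421, 401 higher and 1020 lower. Scaling to 6 spike-in rows shifted the median difference of all probes by -0.13 log2 units and changed the split to 27 higher and 773 lower. ENSDART00000018409_2 read 14.01 ± 0.16 at mid nickel and ENSDART00000067818_2 13.15 ± 0.18 (SD, n = 4 each). Their differences in effect were -8.61 ± 0.93 (SE), adjusted p 1.72e-08, and -8.30 ± 0.79 (SE), adjusted p 1.37e-09. The named increases were also raised at mid nickel, ENSDART00000015991_2 by 4.31 (limma adjusted p 1.33e-06) and ENSDART00000005436_1 by 3.17 (adjusted p 7.79e-07). Of the 39 probes raised 4-fold or more by chromium, 30 were called higher and 0 lower at mid nickel. Among the 250 lowered ones, 97 were called lower and 1 higher. With control RNA in common, these overlaps are a description.

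The calls of the 2 probes with the largest upward difference from nickel varied with the fit. ENSDART00000075235_1 read 8.90, 7.93, 7.79 and 8.38 in chromium controls and 11.06, 11.45, 10.63 and 11.46 at mid chromium, a rise of 2.90 ± 0.28 (SE, adjusted p 5.24e-06), while its log2 fold change at mid nickel was 0.14 (adjusted p 0.934). The difference was 2.77 ± 0.74 (SE), adjusted p 0.0302. ENSDART00000003040_2 read 10.98, 10.32, 10.08 and 10.43 in chromium controls and 11.51, 12.82, 11.94 and 12.22 at mid chromium, and in nickel it went from 10.61 ± 0.37 to 9.21 ± 0.75 (SD, n = 4 each). Its difference was 3.07 ± 0.84 (SE), adjusted p 0.0374, and the second probe of the transcript did not pass, at 2.76 with an adjusted p of 0.117. When the control pools, which the titles give, entered as a random block, the adjusted p was 0.0084 for ENSDART00000075235_1 and 0.0116 for ENSDART00000003040_2, and with only the groups compared it was 0.0153 and 0.00165. Both differences passed 0.05 no longer when the replicate number was used as a block, at adjusted p 0.0627 and 0.0589. The labels do not say whether these numbers pair exposed and control samples. Both calls were also lost when any of 8 single arrays was left out: mid chromium replicates 2 and 4, chromium control replicates 2 and 3, nickel control replicates 1 and 4, and mid nickel replicates 1 and 2. ENSDART00000003040_2 also lost its call with an intensity trend and robust priors (adjusted p 0.0508) and without mid chromium replicate 3, chromium control replicate 4 or nickel control replicate 2.

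As for the arrays themselves, between 66.7% and 68.5% of probes lay above log2 5 on the 16 chromium arrays, and pairs within a group correlated between 0.986 and 0.994. On the first principal component of 19345 probes with a mean above log2 6, which held 52.7% of the variance, controls averaged -60.05 ± 2.36 and mid arrays 17.97 ± 4.47 (SD, n = 4 each). On the second, which held 7.19%, mid replicate 1 stood at 21.5 and the other mid arrays between -8.64 and 6.16. Spike-in rows averaged 10.90 ± 0.21 on mid arrays and 10.96 ± 0.22 on controls. The 2 arrays of the same control pool differed at 496 probes, 93 of them by 2-fold or more, in a limma fit with the pool as block. With the nickel-labelled arrays of the same pools as controls, the mid chromium count was 6468, of which 3865 were among the 5175. The part of the choice of control arrays in the other results was not tested.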

How the data were processed

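The deposited table holds log2 intensity values of one-colour arrays, 1 row per probe and 1 column per array. Per the labels' protocols, whole fish were pulverised, RNA was purified by Trizol and columns, pooled and labelled with Cy3. Of the scanner, background correction and normalization, nothing is given in the sources used here. A log2 scale and a distribution shared by all 48 arrays were seen in the values, so no further normalization was applied. The number of arrays limits the precision. Column names gave the samples, and 61 control rows were left out of the tests.

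R 4.3.3 with limma 3.58.1 was used. Chromium comparisons with control and between doses came from lmFit and eBayes on the 16 chromium arrays. Mid nickel and mid cobalt were compared with their controls in the same way, on the 16 arrays of each metal. Differences between metals came from a fit of all 48. The threshold was a Benjamini-Hochberg adjusted p of 0.05 over all 43714 probes. The fit was run on simulated independent noise with known changes, only as a check of the code. That simulation held no background limit and no correlation between probes, and no result here rests on it. Nothing given here pairs transcript IDs with symbols (0 probes named), so 41 gene lists were not used. Under the naming rule, at most 2 IDs per direction and comparison are given: the brightest probe per transcript, past the threshold, with a mean above log2 6 in a compared group and, against control, no overlap of arrays. The background limit of log2 5 and the unused gene lists with their members were chosen with earlier results of these data known. Same-numbered control and mid chromium arrays correlated between -0.12 and 0.04 in their deviations, so numbers were not taken as pairs. Same-numbered arrays with controls reached at most 0.23 at low chromium, and 0.20 at high chromium and mid cobalt. A pairing by number is not excluded by these values. The 2 arrays of a control pool correlated between 0.47 and 0.61, and titles give that pairing. Alternatives tried are in the closing section.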

Additional observations from a re-analysis of the deposited data

Results flagged for a closer look

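Among 76 groups of 4 values examined, 8 held a single array far from the other 3, where chance gives such an array in about 1 in 20 groups. In high chromium, replicate 3 stood at 11.28 for ENSDART00000018409_2 (other arrays 4.79 to 5.26), at 9.62 for ENSDART00000067818_2 (4.63 to 5.31), and at a median difference from control of -2.72 over the 35 probes lowered 16-fold or more at the mid dose (-5.16 to -4.75). Cobalt control replicate 2 stood at 8.26 for ENSDART00000015991_2 (5.47 to 5.78). Mid cobalt replicate 3 was low for ENSDART00000015991_2, at 8.34 (9.44 to 9.66), and for ENSDART00000005436_1, at 10.42 (11.74 to 11.93). For ENSDART00000005436_1, mid nickel replicate 3 stood at 12.55 (11.74 to 11.84) and chromium control replicate 2 at 9.30 (8.91 to 8.96). Mid chromium replicate 1 of ENSDART00000015991_2, at 7.46 against 10.04 to 10.57, fell just short of the same criterion, and leaving it out moved the increase from 3.77 to 4.49 log2 units.

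The mid-dose effects of chromium also differed from those of the other metals, by limma's test of the difference: 974 probes between chromium and nickel, with ENSDART00000003040_2 at 3.07, ENSDART00000075235_1 at 2.77, ENSDART00000018409_2 at -8.61 and ENSDART00000067818_2 at -8.30, and 1972 probes between chromium and cobalt, with ENSDART00000091158_2 at 5.15, ENSDART00000019431_1 at 4.92, ENSDART00000018409_2 at -8.84 and ENSDART00000067818_2 at -8.44 (log2 units). Without cobalt control replicate 2 the count against cobalt was 1866, and the 4 differences were 5.28, 5.07, -8.78 and -8.33.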

How the results depend on the processing

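The count at mid chromium against control (5175) ran from 4160 to 5031 when a single array was left out, was 5296 without high replicate 3 (added after seeing the data), and 6468 with the nickel-labelled arrays of the control pools, of which 3865 were among the 5175. It was 2827 with spike-in scaling (1400 higher, 1427 lower), 2851 with 1 probe per transcript and 1264 with a 2-fold limit. The difference from nickel gave 575 with 1 probe per transcript, 635 with a 2-fold limit and 857 to 952 with an array left out; that from cobalt gave 1123, 1014 and 1685 to 1903, and 1124 with spike-in scaling. Against the low dose the count was 0 to 1 with an array left out (1 without low replicate 1) and 0 otherwise. Against the high dose it was 6 without the dimmest 25% of probes, 1 with 1 probe per transcript, 41 with spike-in scaling, 20 with an intensity trend, 64 with all 48 arrays, and 0 to 11 with an array left out (2 without mid replicate 3, 5 without high replicate 1, 11 without high replicate 3). Against the mean of both neighbours it was 12 with spike-in scaling, 3 with a trend, 5 with only the groups compared, 10 with all 48 arrays, and 0 to 4 with an array left out (4 without mid replicate 1, 1 without high replicate 1). The cause of these shifts was not tested, apart from fewer probes or a stricter limit by construction. With the replicate number as a block the counts were 5163, 0, 0 and 0 within chromium, 1019 against nickel and 2084 against cobalt. The labels do not say whether these numbers pair exposed and control samples. The named probes kept their direction in every alternative run. Those named against control and against cobalt stayed past the threshold, as did the 2 decreases against nickel, whereas ENSDART00000003040_2 and ENSDART00000075235_1 lost it in 11 and 8 of 16 fits with an array left out, with adjusted p up to 0.0949 and 0.102. No named decrease can be measured below log2 5, and the number of arrays limits small differences.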
